A study of Mus musculus with 5 samples.

Results

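This account covers 7 genes of the eosinophil effector and eotaxin axis, Rnase2a, Prg2, Ccr3, Siglecf, Ccl11, Ccl24 and Alox15, out of 9727 genes measured in mouse lung. They were chosen by name: a gene entered when a probe whose annotation names only that gene carried values for 4 or more of the 5 arrays, and probes of a gene were averaged per array. All 7 genes met this rule, each through 1 probe with a value on all 5 arrays. The series holds 5 ova lungs, from C3H mice (an inbred strain) numbered 1 to 5 that were sensitised to the egg-white allergen ovalbumin and challenged with it. Each was hybridised on its own two-colour array against the same pool of lung RNA from control C3H mice, and all RNA was amplified. The pool counts as 1 control sample, the sources used here do not give its number of animals, and the spread among control mice is therefore not in any test.

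Eosinophils are granulocytes that leave the blood and gather in the airways in allergic inflammation, and their presence in the lung is a hallmark of ovalbumin models. They are drawn there by eotaxins, chemokines that bind the receptor CCR3, while interleukin-5 supports their formation and survival, and interleukin-4 and interleukin-13 induce eotaxin genes through the transcription factor STAT6. Inside the tissue they release granule proteins, among them ribonucleases and major basic protein, and lipid mediators made by lipoxygenases.

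Values are log ratios of the ova lung and the control pool, read as log2, with each array's median subtracted, so that 0 is the typical gene of that array. The labels do not say which of the samples is the numerator. A negative value therefore means less signal in the ova lung if the ova lung is the numerator and more signal in the ova lung if the pool is, and genes are described by their side of 0. The 5 arrays ran the same way, with Pearson's r across probes between 0.64 and 0.83 for the 10 pairs of arrays, which share the pool. The dyes are not given. If the ova lung carried the same dye on every array, a gene's dye effect could not be told apart from its ratio. Such an effect would also raise r and enter every test against 0. A list of 11 genes known for their response in allergic airways had 9 tested genes, of which 8 passed the test below 0, with a list median of -3.31. Rnase2a and Ccl11 are on that list, which was chosen with earlier results of these data known. The files hold ratios and no brightness, so the lung origin of the RNA could not be checked from marker levels.

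Of the 7 genes, 4 passed the test below 0 (Rnase2a, Alox15, Ccl11 and Ccr3), 1 passed above 0 (Siglecf), and 2 did not pass (Prg2 and Ccl24). The threshold for passing was an adjusted p of 0.05 in limma's moderated test against 0, with Benjamini-Hochberg adjustment over all 9727 genes. Over all genes 27.3% passed, 15.0% below 0 and 12.3% above 0. The median of the 7 means was -0.39, against 0 for all genes. In whole lung, a different number of cells of a type and a different amount of RNA per cell cannot be told apart, whichever sample is the numerator. Without moderation of the variances, a plain one-sample statistic kept the call of Rnase2a (adjusted p = 0.034) and lost those of Ccl11 (0.0577), Alox15 (0.0787), Siglecf (0.148) and Ccr3 (0.158). Among genes with 5 values, 41.0% lay on 1 side of 0 in all 5 mice, as 5 of the 7 genes did.

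**Figure D1:**
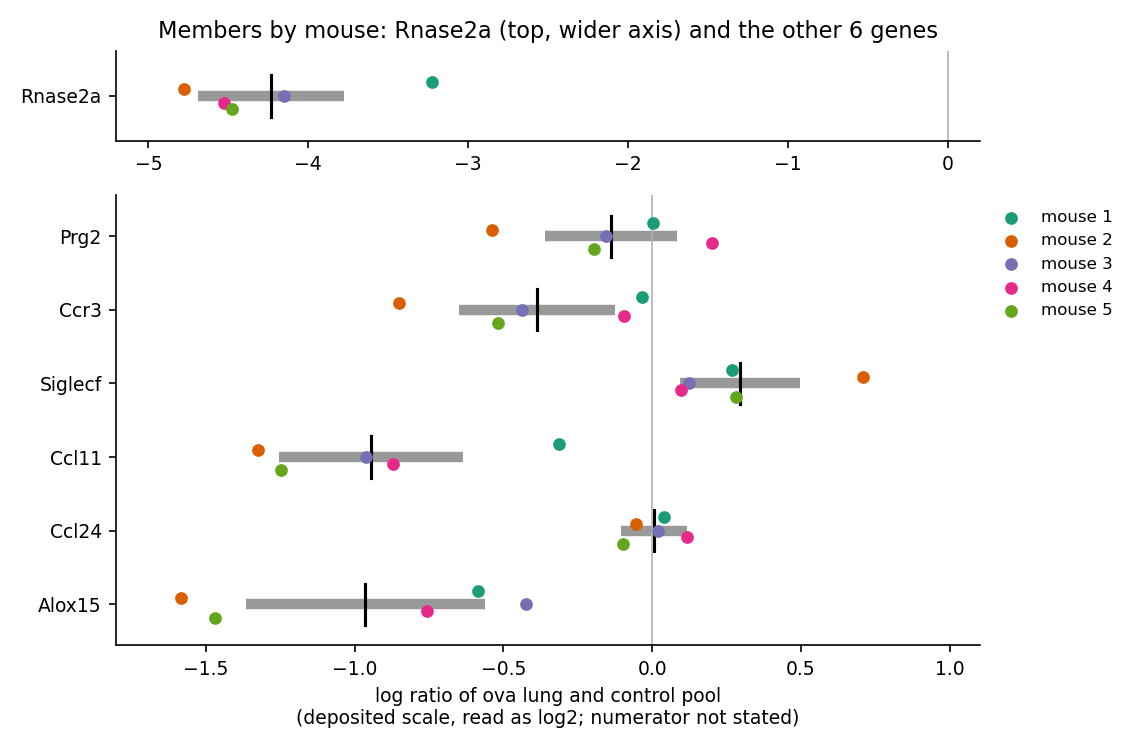
Log ratio of ova lung and control pool (x axis, read as log2) for each of the 7 genes (rows); points are the 5 ova mice, black bars the means and grey bars the 95% intervals of limma's moderated fit, with a wider axis for Rnase2a. The 5 Rnase2a points lie between -4.78 and -3.23, the 5 points of Siglecf are all above 0, and the 5 points of Ccl24 lie between -0.10 and 0.12.

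Rnase2a and Prg2 were paired here as genes of granule proteins. Whether the Rnase2a signal comes from eosinophils or their granule protein was not tested. Rnase2a, known before as Ear11, belongs to the rodent eosinophil-associated ribonucleases. Its log ratio was -3.23 in mouse 1, -4.78 in mouse 2, -4.15 in mouse 3, -4.53 in mouse 4 and -4.48 in mouse 5. All 5 mice were far below 0, with mouse 1 nearest to it. The mean was -4.23 ± 0.60 (SD, n = 5; limma adjusted p = 5.55e-05), which is 18.8-fold if the log base is 2 (95% interval 13.7 to 25.8). Only 2 of the 9727 genes, Retnla and Clca1, had a lower mean.

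Prg2, the gene of major basic protein, the main protein of the eosinophil granule core, had log ratios of 0.00, -0.54, -0.16, 0.20 and -0.20 in mice 1 to 5. Its values lay on both sides of 0, with 3 mice below and 2 above. The mean was -0.14 ± 0.27 (SD, n = 5; 95% interval -0.36 to 0.08; limma adjusted p = 0.323). The log ratio of Rnase2a was below that of Prg2 in all 5 mice, by a mean of -4.09 ± 0.55 (95% interval -4.78 to -3.41). The exact two-sided sign-flip permutation test over the 5 mice gave p = 0.063, the smallest p that 5 mice allow, here and in the other 2 pairs compared below, and 0.063 after Benjamini-Hochberg adjustment over the 3 pairs.

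The other ribonucleases of the same superfamily that could be tested gave small ratios. Rnase2b, Ear1, Ear2, Ear6 and Ear10 had no probe naming only them. Of the listed eosinophil-associated ribonucleases, only Ear14 was therefore tested besides Rnase2a. The list also holds Rnh1, the gene of the cytosolic ribonuclease inhibitor, which is not a ribonuclease. Of the 7 tested genes of the list 2 passed, Rnase2a and Rnh1, while 27.3% of all genes passed. Rnh1 had a mean log ratio of -0.44 ± 0.21 (limma adjusted p = 0.00609). Ear14, a close relative of Rnase2a, had -0.07, -0.12, -0.08, -0.07 and -0.27 in mice 1 to 5 and did not pass (adjusted p = 0.0949). The ribonucleases Rnase1, Rnase4, Rnase6 and Rnase10 lay between -0.07 and 0.16. Related ribonucleases are similar in sequence and may share signal on 1 probe, which was not tested.

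Neutrophil markers lay on the same side as Rnase2a. Of 8 neutrophil genes 7 passed below 0, led by Camp, a granule peptide gene (-1.17), S100a8 (-1.13) and S100a9 (-0.73), which encode calprotectin, and the list median was between -0.71 and -0.17 in the 5 mice. Mast cell and basophil markers did not lie on 1 side: of 6 genes, Mcpt8, a basophil protease gene, passed at -1.20 and Gata2, a transcription factor gene of mast cells, basophils, eosinophils and their progenitors, at 0.62, and the list median was -0.04. Genes of alternatively activated macrophages lay on the side of Rnase2a too. Without Alox15 and Ccl24, 7 of 8 passed below 0, against 15.0% of all genes, among them Retnla (-4.79). The part of these or any other cells in the ratio of Rnase2a was not tested.

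Eosinophil granule and lineage genes had 12 tested members, of which 5 passed below 0 and 2 above, with a list median of -0.26. With Rnase2a, Prg2, Ccr3, Siglecf and Alox15 left out, 2 of 7 passed below 0, Pirb and Ltc4s, and 1 above 0, Gata2. Pirb, an inhibitory receptor gene of myeloid cells, had -0.87 ± 0.63 (limma adjusted p = 0.0176), and Ltc4s is described with the lipoxygenases. Gata1, a transcription factor gene of the eosinophil lineage, was below 0 in all 5 mice, at -1.26 in mouse 5 and -0.36 to -0.08 elsewhere, and did not pass (mean -0.42, adjusted p = 0.0839). Trib1 (-0.13) and Cebpa (-0.11), genes active in myeloid development, did not pass either.

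Ccr3 and Siglecf encode receptors on the eosinophil surface, and they lay on opposite sides of 0. Promoter sequence from RefSeq (GRCm38.p6) was found for 3 of the 7 genes, Rnase2a, Ccr3 and Siglecf. The 250 bases before each start are shown, because these 3 genes are all linked to eosinophils, though not each to them alone, yet differ in side and size. Capitals mark matches, on either strand, to GATAA, the core of the motif of GATA transcription factors, of which GATA1 is needed to form eosinophils. The Rnase2a stretch is chr14:51256113-51256362 on the minus strand, that of Ccr3 chr9:124021721-124021970 on the plus strand and that of Siglecf chr7:43351091-43351340 on the plus strand.
Rnase2a: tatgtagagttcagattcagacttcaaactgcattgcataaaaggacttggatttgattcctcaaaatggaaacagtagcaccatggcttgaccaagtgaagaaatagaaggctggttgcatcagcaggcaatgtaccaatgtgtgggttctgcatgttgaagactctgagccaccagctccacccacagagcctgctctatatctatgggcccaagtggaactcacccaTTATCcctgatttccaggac
Ccr3: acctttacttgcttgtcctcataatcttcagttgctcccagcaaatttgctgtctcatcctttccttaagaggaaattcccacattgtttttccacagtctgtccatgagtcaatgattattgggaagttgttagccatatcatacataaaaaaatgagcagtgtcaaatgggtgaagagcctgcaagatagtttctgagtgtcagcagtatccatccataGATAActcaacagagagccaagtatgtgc
Siglecf: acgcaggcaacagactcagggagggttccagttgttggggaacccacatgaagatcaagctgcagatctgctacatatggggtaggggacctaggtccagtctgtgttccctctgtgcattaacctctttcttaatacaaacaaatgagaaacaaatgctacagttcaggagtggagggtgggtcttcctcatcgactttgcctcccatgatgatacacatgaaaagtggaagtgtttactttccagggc

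GATAA occurs 1 time before Ccr3, starting 29 bases before the start, and 1 time before Rnase2a, as TTATC on the printed strand, starting 20 bases before the start. The Siglecf stretch has 0 matches. Of 32851 promoter stretches of the same length, 22.6% hold GATAA. The palindromic letters TTCNNNNGAA, a form of the STAT motif, were searched too and had 0 matches in the 3 stretches, against 5.85% of all. A match is a description of letters and not a binding site.

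Ccr3, the receptor of the eotaxins on eosinophils, had log ratios of -0.04, -0.85, -0.44, -0.09 and -0.52 in mice 1 to 5. All were below 0, but mice 1 and 4 were close to it. The mean was -0.39 ± 0.33 (SD, n = 5; 95% interval -0.65 to -0.12; limma adjusted p = 0.0389), and 654 genes had a lower mean. The call was lost without mouse 2 (adjusted p = 0.0884, mean -0.27), without mouse 3 (0.113) and without mouse 5 (0.123).

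Siglecf encodes a sialic acid-binding inhibitory receptor carried by eosinophils and by alveolar macrophages. It had log ratios of 0.27 in mouse 1, 0.71 in mouse 2, 0.12 in mouse 3, 0.10 in mouse 4 and 0.28 in mouse 5. All 5 mice lay above 0, with mouse 2 the highest. The mean was 0.30 ± 0.24 (SD, n = 5; 95% interval 0.09 to 0.50; limma adjusted p = 0.0402), and 605 genes had a higher mean. The call was lost when mouse 1, 2, 3 or 5 was left out, with adjusted p-values of 0.0694, 0.0587, 0.064 and 0.103, and without mouse 2 the mean was 0.19.

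The log ratio of Ccr3 was below that of Siglecf in all 5 mice, by -0.30, -1.56, -0.56, -0.19 and -0.80 in mice 1 to 5. The mean difference was -0.68 ± 0.54 (95% interval -1.36 to -0.01; exact permutation p = 0.063). Mouse 2 had both the lowest Ccr3 and the highest Siglecf value.

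Of 12 tested alveolar macrophage genes, Siglecf included, 5 passed above 0 and 1 below, and the list median was between 0.02 and 0.18 in the 5 mice. Fabp1 (0.48, n = 4), a fatty acid-binding protein gene of these cells, and Cidec (0.24), a lipid droplet gene, were on the side of Siglecf. Mrc1, the mannose receptor gene, passed at -1.23, while Marco, the scavenger receptor that marks alveolar macrophages, had -0.24 and did not pass. The part of alveolar macrophages in the ratio of Siglecf was not tested. Among 5 Siglecs and related receptors, the myeloid gene Cd33 (-0.46) and the B cell gene Cd22 (-0.36) passed below 0, opposite to Siglecf.

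Of 9 tested receptors that share ligands with CCR3 or that eosinophils carry, Ccr1 and Ccr3 passed, both on the negative side. Ccr1, a receptor of several inflammatory chemokines, had -0.27, -1.23, -1.44, -1.56 and -1.98 in mice 1 to 5 and a mean of -1.30 ± 0.63 (limma adjusted p = 0.00405). Its size was smallest in mouse 1, as for Ccr3, but mouse 4, near 0 for Ccr3, was the second lowest for Ccr1. The probes of Ccr1 and Ccr3 have neighbouring IDs. Over all pairs of neighbouring IDs that name no common gene, Pearson's r of the mean ratios was 0.02 (8668 pairs, a description).

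The 2 eotaxin genes differed. Ccl11, eotaxin-1, which airway epithelium and fibroblasts make, had log ratios of -0.31, -1.33, -0.96, -0.87 and -1.25 in mice 1 to 5. All were below 0, and mouse 1 stood nearest to it. The mean was -0.94 ± 0.40 (SD, n = 5; limma adjusted p = 0.00264), 1.92-fold if the base is 2 (95% interval 1.55 to 2.38), and 132 genes had a lower mean.

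Ccl24, eotaxin-2, made largely by macrophages, had log ratios of 0.04, -0.06, 0.02, 0.12 and -0.10 in mice 1 to 5. These values lay on both sides of 0 and within a range of 0.21. Without brightness values, a ratio near 0, here or for Prg2, cannot be told from a probe without signal. The mean was 0.00 ± 0.08 (SD, n = 5; 95% interval -0.11 to 0.12; limma adjusted p = 0.955), and 97.6% of genes had a mean at least as far from 0. The log ratio of Ccl11 was below that of Ccl24 in all 5 mice, by a mean of -0.95 ± 0.35 (95% interval -1.39 to -0.51; exact permutation p = 0.063).

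Ccl11 was 1 of 6 genes past the threshold among 9 tested CCR3 ligands and other chemokines that attract eosinophils. All 6 lay on the negative side, and at an unadjusted p under 0.05 the counts were the same, 6 negative and 0 positive. The unadjusted counts have no share of all genes beside them. Ccl8, a chemokine of the monocyte chemoattractant family, had the lowest mean, -2.89 ± 1.102, with values between -4.18 in mouse 2 and -1.25 in mouse 1. Ccl9 followed at -2.69 ± 0.88, then Ccl12 at -1.07 ± 0.59, Ccl6 at -0.93 ± 0.57 and Ccl5, the CCR3 ligand RANTES, at -0.85 ± 0.45. Ccl3 (-0.03) and Ccl4 (-0.23) did not pass. The list median was -0.93, and with Ccl11 and Ccl24 left out it stayed at -0.93 over 7 genes.

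Markers of cells that make Ccl11 were on both sides. Of 12 fibroblast and smooth muscle genes, Ccl11 included, 5 passed below 0 and 1 above, and the list median was between -0.37 and 0.01 in the 5 mice. Col1a1 (-0.78) and Col3a1 (-0.75), collagen chain genes, lay on the side of Ccl11, and the fibroblast receptor gene Pdgfra (0.35) on the other. Of 12 airway epithelial genes 6 passed below 0 and 2 above, among them the goblet cell gene Clca1 (-4.33), the mucin gene Muc5ac (-2.997) and the cadherin gene Cdh1 (-0.41), against the club cell gene Scgb1a1 (0.70, n = 4) and the keratin gene Krt8 (0.26). The part of these cells in the ratio of Ccl11 was not tested.

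Alox15, the enzyme 12/15-lipoxygenase of eosinophils, airway epithelium and alternatively activated macrophages, oxidises arachidonic acid to lipid mediators. It had log ratios of -0.58, -1.58, -0.42, -0.76 and -1.47 in mice 1 to 5. All were below 0, with mice 2 and 5 set apart from the other 3. The mean was -0.96 ± 0.53 (SD, n = 5; limma adjusted p = 0.00629), 1.95-fold if the base is 2 (95% interval 1.48 to 2.57), and 129 genes had a lower mean. The probe of Alox15 lies 6 IDs from that of Vcan (-0.92). At that distance Pearson's r between mean ratios of probes naming no common gene was 0.16 (9138 pairs), while between distances 1 and 30 it was above 0.03 in size at distances 6, 18 and 24 and at no other. Pairs in which both probes lack a symbol were kept, at every distance. Repeated unnamed spots could therefore add to r, which was not tested. No other of the 7 probes lay 6, 18 or 24 IDs from a probe with a mean beyond 0.5 in size.

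Of 10 lipoxygenase and leukotriene genes 4 passed below 0 and 1 above. Besides Alox15 these were Ltc4s, the leukotriene C4 synthase gene (-0.68 ± 0.44), Pla2g4a, the phospholipase that frees arachidonic acid (-0.36 ± 0.21), and the platelet-type lipoxygenase gene Alox12 (-0.21 ± 0.14). Gpx4, which reduces lipid hydroperoxides, was on the positive side at 0.39 ± 0.15. As for Alox15, mice 2 and 5 were the lowest for Ltc4s, at -1.04 and -1.23.

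Genes of alternatively activated macrophages, a further source of Alox15 and Ccl24, lay on the negative side. With Alox15 and Ccl24 left out, 7 of 8 tested genes passed there, led by Retnla (-4.79), Arg1 (-3.48) and Mmp12 (-2.30), and the median of the full list of 10 was between -1.85 and -0.50 in the 5 mice. Alox15 lay on the side of this list and Ccl24 was at 0.00. The part of these cells in either ratio was not tested.

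Upstream signals of the axis were measured in part. Of 10 genes of interleukin-5, interleukin-3 and GM-CSF signalling, 4 passed and lay on the negative side, among 6 below an unadjusted p of 0.05. The share of all genes at that unadjusted p is not given here, so the count of 6 has no background beside it. Il5, the main eosinophil growth factor, had -0.55, -1.0, -0.92, -0.67 and -1.08 in mice 1 to 5 (mean -0.84 ± 0.23, limma adjusted p = 0.00085). Their SD, 0.23, was below that of Ccr3 (0.33) and of Alox15 (0.53). Csf2rb2, a receptor beta chain gene (-0.73 ± 0.45), the kinase gene Jak2 (-0.51 ± 0.15) and Csf2ra, the GM-CSF receptor alpha chain gene (-0.22 ± 0.08), completed the 4. Of 8 genes of the interleukin-4, interleukin-13 and STAT6 arm, 3 passed below 0 and 1 above. The feedback inhibitor gene Socs1 had -1.07 ± 0.35, the kinase gene Tyk2 -0.23 and the interleukin-25 receptor gene Il17rb -0.18, while Tslp, an epithelial alarmin, had 0.45 ± 0.11. Stat6 itself (-0.27 ± 0.42, adjusted p = 0.194) did not pass.

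Of 13 adhesion and traffic genes, 5 passed below 0 and 1 above. The leukocyte integrin chain genes Itgb2 (-0.83 ± 0.43) and Itga4 (-0.59 ± 0.36) were lowest, and Cd44, a hyaluronan receptor gene, had -0.40 ± 0.31. Itgb1, an integrin chain that most cells carry, had 0.31 ± 0.21.

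**Figure D2:**
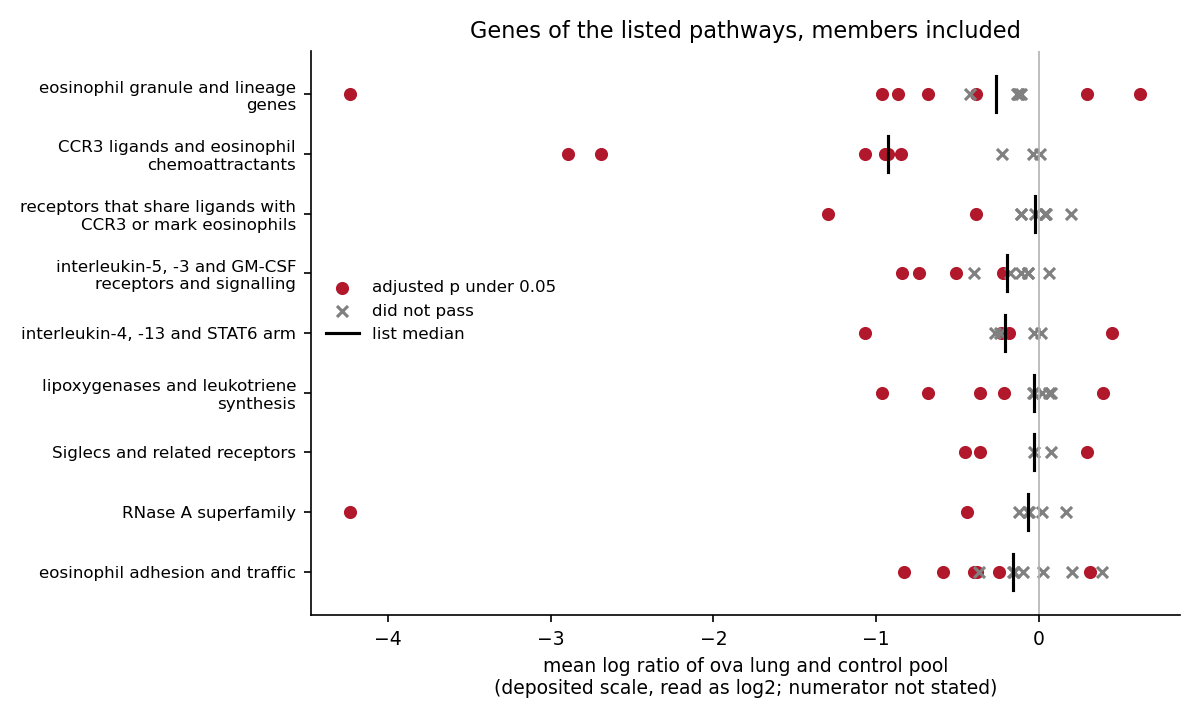
Mean log ratio of ova lung and control pool (x axis, read as log2, n = 4 or 5 mice) for the tested genes of 9 lists (rows), the 7 genes included; red circles passed an adjusted p of 0.05, grey crosses did not, and black bars are list medians. The chemoattractant list has the lowest median, -0.93, and the other 8 medians lie between -0.26 and -0.02.

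Over the 9 lists together, with the 7 genes left out, 70 distinct genes were tested, of which 25 passed below 0 and 4 above. These are 35.7% and 5.71%, against 15.0% and 12.3% of all genes. The lists were chosen with earlier results of these data known, so these shares are a description and not a test. Several genes that define eosinophils gave too few values to test. Epx, the eosinophil peroxidase gene, was blank on every array, Prg3, a second major basic protein gene, had a value in 1 mouse (0.01) and Il5ra, the interleukin-5 receptor alpha chain gene, in 1 mouse (0.16). Il4 had values in mice 1, 2 and 5 of 0.06, -0.72 and -0.52, and Il13 in the same mice of -0.02, 0.08 and -0.22.

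Ordered by mean, the 7 genes ran from Rnase2a through Alox15, Ccl11, Ccr3, Prg2 and Ccl24 to Siglecf. Rnase2a was the lowest in all 5 mice, below Alox15 by 3.27 ± 0.48. Alox15 and Ccl11, neighbours in this order, differed by 0.02 ± 0.35, less than their spread, and in 2 of 5 mice Ccl11 was the lower. Ccl11 was below Ccr3 by 0.56 ± 0.20 and Ccr3 below Prg2 by 0.25 ± 0.12, each in 5 of 5 mice. Prg2 and Ccl24 (0.14 ± 0.21) differed by less than the SD, and Ccl24 and Siglecf by 0.29 ± 0.30, both with the same order in 4 of 5 mice. Siglecf was the highest of the 7 in 4 mice and Prg2 in mouse 4.

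**Figure D3:**
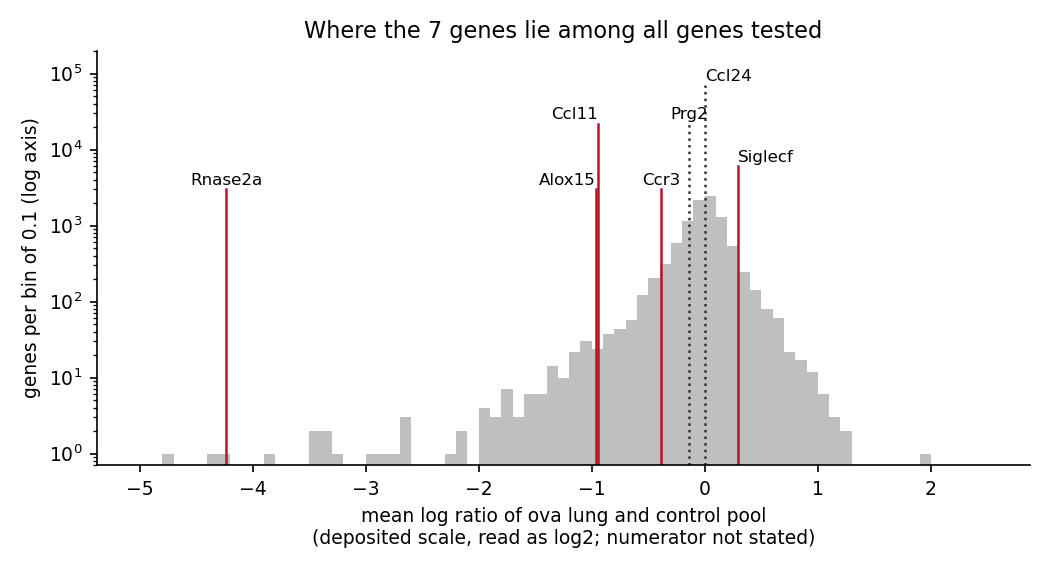
Histogram of the mean log ratio of all 9727 genes (x axis, read as log2; y axis, genes per bin on a log scale) with the means of the 7 genes as vertical lines, red where the adjusted p was under 0.05 and dotted where it was not; line heights carry no value. Rnase2a lies at -4.23 in the far negative tail, Alox15 and Ccl11 near -1, and Ccl24 at the centre.

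The size of the ratios differed between arrays. Over 755 genes past the threshold with a mean beyond 0.5 in size in mice 2 to 5, mouse 1 had a median of 0.453 of that mean. For Rnase2a this share was 0.72, for Alox15 0.552, for Ccl11 0.283, for Ccr3 0.0738 and for Siglecf 0.886. The values of the 5 genes in mouse 1 thus lay on both sides of the share for the 755 genes. Mouse 2 had the largest size of each of these 5 genes, between 1.17 times the mean of the other 4 mice for Rnase2a and 3.67 times for Siglecf. Genes past the threshold with a mean beyond 0.5 in size in the other 4 mice had a median of 1.12 there. Ccr3 and Siglecf never reach that size: with 1 mouse left out their means were -0.47 to -0.27 and 0.19 to 0.345. A small mean makes such a ratio unstable, so these medians are no like comparison for Ccr3 and Siglecf.

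**Figure D4:**
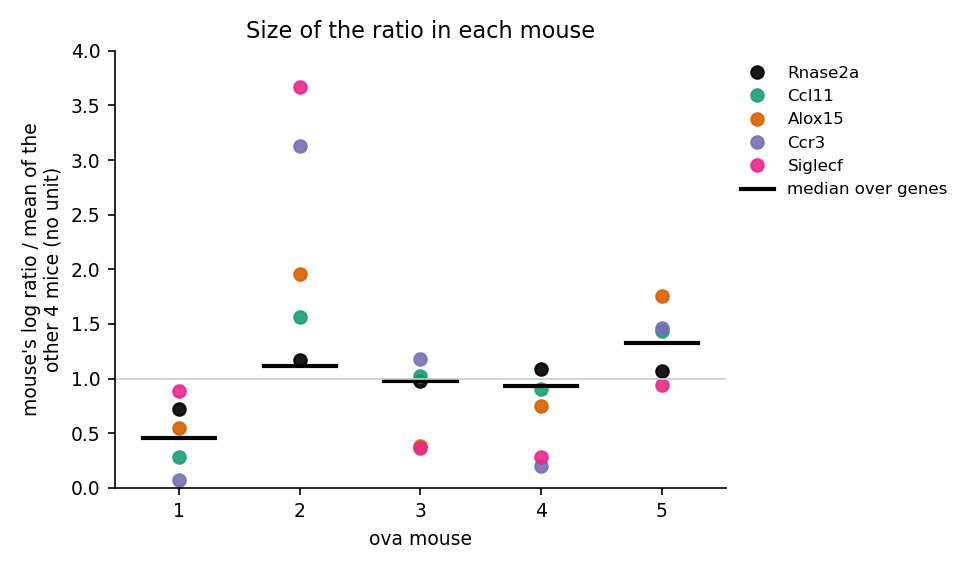
Log ratio in each ova mouse divided by the mean of the other 4 mice (y axis, no unit) for the 5 genes past the threshold (points) in mice 1 to 5 (x axis); black bars are the median over genes past the threshold whose mean in the other 4 mice is beyond 0.5 in size. In mouse 2 all 5 points lie above the bar at 1.12, and in mouse 1 the bar is at 0.453. The means of Ccr3 and Siglecf in the other 4 mice do not reach 0.5 in size.

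Genes with the most similar values in the 5 mice were sought among the 8041 other genes measured on all arrays, by the root mean square difference of the 5 log ratios. For Rnase2a these were Clca1 (0.24), Retnla (0.64) and Saa3 (0.67), an acute-phase serum amyloid gene. Few genes lie that far from 0, so the distances are larger than for the other genes. For Ccr3 they were Vcam1 (0.05), the endothelial ligand of the integrin that holds eosinophils, Ahsg (0.09) and 4930415O20Rik (0.09). Vcam1 had -0.06, -0.89, -0.43, -0.01 and -0.46 in mice 1 to 5 and did not pass (adjusted p = 0.0552). Ccl11 was closest to Lrr1 (0.06), Nek2 (0.09) and Fen1 (0.11), of which Nek2 encodes a mitotic kinase and Fen1 a DNA replication nuclease. Alox15 was closest to Mefv (0.16), the gene of the inflammasome protein pyrin in granulocytes and monocytes, Padi1 (0.20) and Ndc80 (0.21). Siglecf was closest to Adk (0.06), Wnt3a (0.06) and Cttnbp2nl (0.07).

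**Figure D5:**
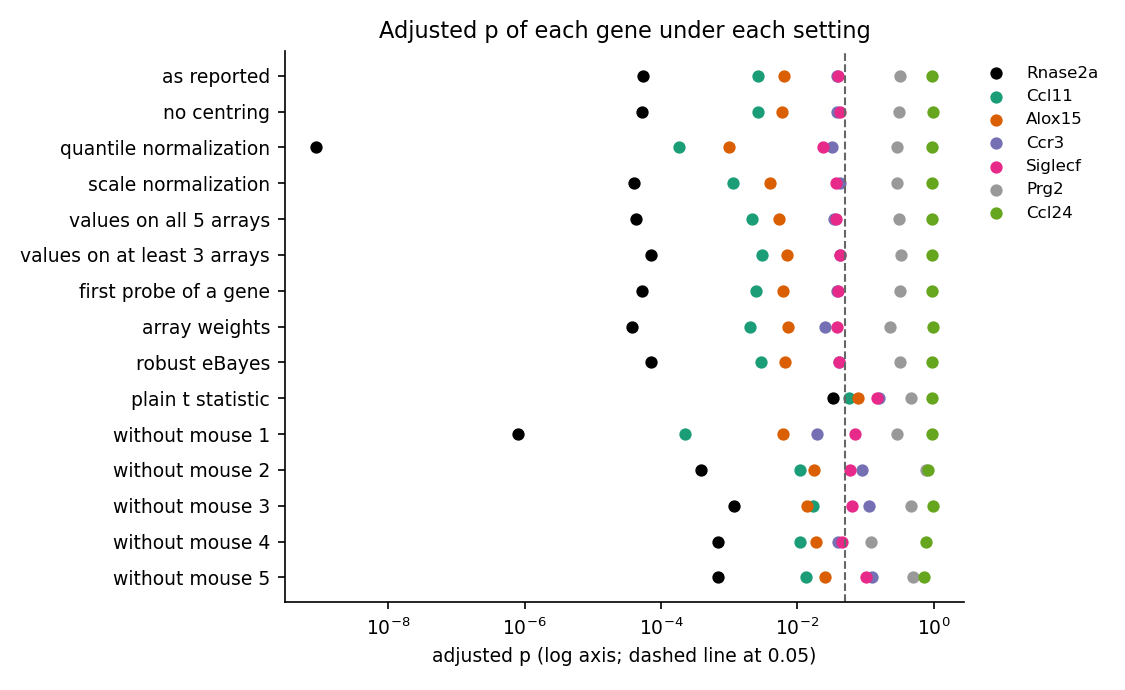
Adjusted p (x axis, log scale) of each of the 7 genes against a log ratio of 0 as reported and under 14 other settings (rows), with a dashed line at 0.05; points are coloured by gene. Rnase2a stays left of the line in every setting, Ccr3 and Siglecf lie close to it, and Prg2 and Ccl24 stay right of it.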

How the data were processed

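Amplified lung RNA of each ova mouse and of the control pool was hybridised to 1 two-colour array per mouse, per the labels. The authors' deposited table holds 1 log ratio per probe and array for 17280 probes, read here as log2. The sources used here do not give its log base, numerator, dyes, background correction or normalization. Base 10 is unlikely, since the largest size, 5.168, exceeds the log10 range of a 16-bit scanner, 4.82. It is not excluded, because the scanner's depth is assumed and background correction or normalization can widen a ratio. Under the natural log every fold would be larger and the log values the same. Array medians of the deposited values were between -0.015 and 0.008. Per array 11778 to 13320 probes had a value, and the number of arrays limits the precision.

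Genes were named from the platform annotation, in which 14722 probes have 1 symbol, 1 has several and 2557 have none. Of these symbols 14445 matched a RefSeq gene identifier and 0 changed. The files name no genome build. Array medians were subtracted, probes naming 1 gene were averaged, and genes with values on at least 4 arrays were fitted with limma 3.58.1 in R 4.3.3 (intercept, eBayes). The fit was tested on simulated data. Intervals are at 95%, those of pair differences from the spread over mice. The labels number the mice as separate animals. The 7 genes and the 16 lists were chosen with earlier results of these data known. Named are the 7 genes, up to 3 genes per list and side with the largest mean past the threshold, and for each of the 7 past the threshold the 3 nearest genes. Other listed genes were named after their values were seen. Alternatives changed the centring, normalization between arrays, filter on blanks, choice of probe, array weights, moderation and set of mice. A fit on probes, of which 11714 were tested, gave the 7 genes the same calls. Each of these genes has 1 probe, so that fit used the same values and is no separate check.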

Additional observations from a re-analysis of the deposited data

Results flagged for a closer look

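Of 146 sets of values examined, from 143 genes (the 7 genes, all tested genes of the 16 lists and the nearest genes) and 3 pair differences, 10 had 1 mouse set apart from the others by Dixon's test at the 95% level. Chance gives about 1 in 20. None of the 7 genes was among them. Jak2 had -0.248 in mouse 1, with the other 4 mice between -0.594 and -0.55. Il17rb had -0.394 in mouse 4, against -0.16 to -0.105 in the others. Tyk2 had 0.039 in mouse 3, against -0.324 to -0.287 in the others. Wnt3a had 0.642 in mouse 2, against 0.14 to 0.252 in the others. Gata1 had -1.262 and Ear14 -0.269 in mouse 5, against -0.362 to -0.078 and -0.121 to -0.071 in the others. Icam2 had 1.096 in mouse 2, against 0.063 to 0.296. Cnn1 had -0.478 in mouse 2, against -0.282 to -0.218, and Scgb3a2 0.414 in mouse 2, against 0.099 to 0.151 in the 3 other mice with a value. Cpa3 had -0.868 in mouse 5, against -0.257 to -0.072.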

How the results depend on the processing

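Rnase2a, Prg2 and Ccl24 kept their side of the threshold under all 14 alternatives, Rnase2a with adjusted p-values between 8.6e-10 and 0.034. Ccl11 and Alox15 kept theirs under 13 of 14, Ccr3 under 10 and Siglecf under 9. Each of the 7 genes has 1 probe with values on all 5 arrays. The settings for blanks and choice of probe therefore left their values unchanged and moved only the fit over all genes. Without centring the mean of Ccr3 was -0.3878 and that of Siglecf 0.2944. These settings say little about how stable a call is. Without moderation (a plain one-sample statistic per gene, adjusted over all genes) Ccl11 (-0.94, adjusted p = 0.0577), Alox15 (-0.96, 0.0787), Ccr3 (-0.39, 0.158) and Siglecf (0.30, 0.148) lost their calls. Then 1 of the 7 genes passed below 0 and 0 above (3 and 0 at an unadjusted p under 0.05), 5 and 2 of the other pathway genes, and 329 and 287 of all genes. Leaving out 1 mouse at a time, the mean of Ccr3 was between -0.47 and -0.27 and that of Siglecf between 0.19 and 0.345. The number of the 7 genes on the positive side was then 0 to 1 (limma; 1 at an unadjusted p under 0.05 in each of these fits). The count of all genes on the negative side was 928 to 1429, lowest without mouse 5 (928) and mouse 3 (943). On the positive side it was 671 to 1124, with 671 without mouse 5, 735 without mouse 3 and 789 without mouse 2. Fits without a mouse have fewer arrays and needed values on 3. All 3 differences between pairs kept their sign under 10 alternatives each, but most of these could not change it. Each difference was negative in all 5 mice, so leaving out 1 mouse keeps the sign. The settings for blanks and choice of probe left the differences unchanged. With 4 mice the exact test cannot go below p = 0.125. No paired analysis was possible because the series holds 1 group. No brightness is in the files, so signal over background could not be used.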
